A study of Mus musculus with 37 samples.

Results

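Mammary glands of wild-type (WT) mice at day 10 of pregnancy (P10) were compared with glands at day 7 (P7), across all genes of a whole-transcript array. The comparison rests on the 3 arrays whose labels give the WT genotype and day 10 and the 4 that give WT and day 7, which are 7 of the 37 arrays of the series. The series set WT glands beside glands of mice lacking PTP1B, the tyrosine phosphatase encoded by Ptpn1, in nulliparous females in oestrus (P0) and at days 3, 7, 10 and 15 of pregnancy, and its title names the role of PTP1B in mammary gland development. All mice were untreated females of an FVB background, mated at an age of 12 weeks, and the knockout (KO) allele had been crossed back to FVB for 7 or more generations. The 5 KO P7 and 3 KO P10 arrays are given beside the WT values as a second look at the same interval in other arrays. RNA came from the gland as a whole, so epithelium, fat, vessels and any lymphoid tissue were measured together. The labels do not state that replicates are separate animals, so the p-values measure a spread between samples that need not be one between animals. That spread is the one within groups, shared over the 10 groups of all 37 arrays. The number of arrays limits the precision.

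Between these days of pregnancy the mouse gland passes from side branching to the formation of alveolar buds. Progesterone acts on hormone-sensing luminal cells, which carry its receptor and release RANKL and WNT4 to neighbouring cells, while prolactin acts through STAT5 on the alveolar cells that later make milk. Capillaries grow around the developing alveoli over the same period.

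Values are log2 intensities, and a difference of P10 minus P7 is given as log2 ± SE. The median of an array was 6.52 to 6.79. Ptpn1 read between 7.90 and 9.06 in the 18 WT arrays and, in 18 of the 19 KO arrays, between 5.36 and 6.49. The KO P15 array of replicate 3, at 8.68, went against its label. WT P7 replicate 1 stood apart from the other WT P7 arrays. Its mean score of B and T lymphocyte markers was 0.81, against -0.43 to -0.30 in the other 3 P7 arrays and -0.30 to -0.22 in the P10 arrays, and its Ptpn1 value of 7.90 was the lowest among the WT arrays. Ms4a1, which encodes the B cell surface protein CD20, read 8.19 in it and 4.38 to 5.15 in the other 6 arrays. WT results below are therefore given with and without this array, in the text or, for the differences of the 35 called genes, in the plot of both fits, and whether lymphoid tissue in it had a part in any other value was not tested.

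At P10 the gland held more transcript of the immunoglobulin transporter Pigr, of the haem-degrading enzyme Hmox1 and of the vessel transcription factor gene Sox18. It held less of the seminal vesicle protein gene Svs2, of the growth factor gene Ptn and of Tnfsf11, which encodes RANKL. Without WT P7 replicate 1 the fall of Tnfsf11 no longer passed the test. Of 16865 genes tested, 35 passed a limma adjusted p of 0.05 (0.208%). Of these, 21 rose (0.125% of the genes tested) and 14 fell (0.083%), and 2003 genes had an unadjusted p below 0.05 (11.9%). Differences of called genes began at 0.32 in size and reached a 3.85-fold rise for Pigr and a 2.78-fold fall for Svs2. The median difference over all tested genes was 0.00. Without WT P7 replicate 1, 24 genes passed (0.142%), of which 18 rose (0.107%) and 6 fell (0.0356%). There were 20 genes called in both fits, and the other 15 had adjusted p up to 0.101 without the array. All 35 differences kept their sign without that array. For the 34 genes whose P7 and P10 arrays did not overlap, leaving out 1 array cannot turn the sign, so nothing is read from this. The largest shift was that of Pigr, by 0.32.

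The P7 and P10 arrays of WT did not overlap for 34 of the 35 called genes, against 3081 of all tested genes (18.3%, with 1730 higher and 1351 lower). The calls were made from the same arrays, so nothing is read from that count. Oit1 was the called gene whose arrays overlapped. Calls depended on single arrays. With WT P7 replicate 2, 3 or 4 left out, 6, 4 and 7 of the 35 genes stayed called, and with WT P10 replicate 1, 2 or 3 left out, 10, 18 and 5 stayed called. Svs2, Hmox1 and Bcar3 were the 3 genes called whichever of the 7 arrays was left out. When each array was centred on its own median, 96 genes were called, 80 of them higher and 16 lower.

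**Figure D1:**
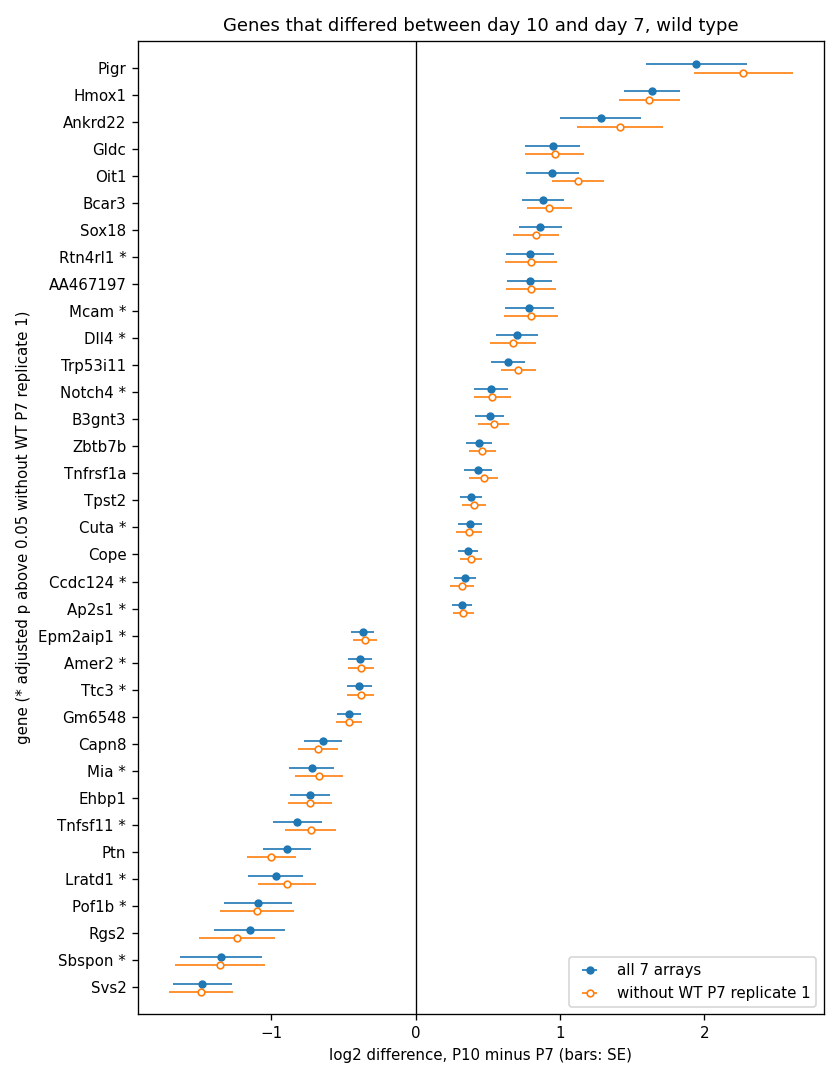
Log2 difference of P10 minus P7 in WT glands for the 35 called genes, from the fit of all arrays (filled points) and from the fit without WT P7 replicate 1 (open points); bars are standard errors, and a star marks the 15 genes whose adjusted p was above 0.05 without that array. The filled points run from -1.47 for Svs2 to 1.95 for Pigr. The open points lie on the same side of 0 for all 35 genes, which is fixed for the 34 without overlap between P7 and P10 arrays.

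Svs2 had the largest fall. The gene encodes a secreted protein known from the seminal vesicle. Its 4 P7 arrays read 6.40, 6.57, 6.37 and 6.36, and its 3 P10 arrays read 5.09, 4.73 and 5.03. Every P10 array was below every P7 array by more than the spread within a group, and the difference was -1.47 ± 0.20 (limma adjusted p = 0.000394), or -1.48 without WT P7 replicate 1 (adjusted p = 0.00163). Over the course of pregnancy Svs2 had means of 4.94 ± 0.13 at P0 (SD, n = 4), 6.03 ± 0.16 at P3 (SD, n = 3), 6.43 ± 0.10 at P7 (SD, n = 4), 4.95 ± 0.19 at P10 (SD, n = 3) and 4.64 ± 0.14 at P15 (SD, n = 4). P10 values lay in the range of the nulliparous arrays or just below it, so the high values were those of P3 and P7. The P0, P10 and P15 means were low readings, just below the filter value of 4.96, the 25th percentile of all values, or further below it.

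Tnfsf11 encodes RANKL, the progesterone-induced ligand by which hormone-sensing cells act on their neighbours. At P7 it read 9.92, 9.55, 9.54 and 9.55, and at P10 8.60, 9.22 and 8.66. WT P7 replicate 1 held the highest of these values, and the arrays of the days did not overlap. The fall was -0.82 ± 0.17 (adjusted p = 0.0323). It was -0.73 without WT P7 replicate 1, where the call was lost (adjusted p = 0.0875), and the adjusted p went up to 0.161 with another of the 7 arrays left out. In WT its mean went from 8.16 in nulliparous glands to 8.98 at P3 and 9.64 at P7, then to 8.82 at P10 and 8.55 at P15, so P7 was the highest of the 5 stages.

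Among the 7 tested markers of hormone-sensing luminal cells, 6 were lower in every P10 array than in any P7 array, against 8.01% of all tested genes, and Tnfsf11 alone passed the test. Wnt4, a WNT ligand induced by progesterone, read 8.53 to 8.72 at P7 and 7.88 to 8.06 at P10 (-0.66 ± 0.15, adjusted p = 0.059, and -0.66 with adjusted p = 0.101 without WT P7 replicate 1). Pgr, the progesterone receptor gene, read 7.65 to 7.77 at P7 and 6.93 to 7.14 at P10 (-0.66 ± 0.31, adjusted p = 0.394, and -0.68 with adjusted p = 0.481 without WT P7 replicate 1). Foxa1, which encodes a pioneer factor of the oestrogen receptor, read 8.23 to 8.60 at P7 and 7.63 to 7.87 at P10 (-0.60 ± 0.22, adjusted p = 0.234, and -0.65 with adjusted p = 0.275 without WT P7 replicate 1). Prom1, a surface marker of these cells, had a difference of -0.33 ± 0.21 (adjusted p = 0.554, and -0.35 with adjusted p = 0.606 without WT P7 replicate 1). Esr1, the oestrogen receptor gene, had a difference of the other sign, 0.31 ± 0.17 (adjusted p = 0.495, and 0.28 with adjusted p = 0.624 without WT P7 replicate 1). The spread within each day was small for Pgr, but the SE of the fit is shared over all groups, and Pgr had an SD of 0.99 at P0. The median difference of the 7 markers was -0.60, or -0.65 without WT P7 replicate 1, beside 0.00 and 0.01 over all tested genes. Their mean score was 0.19 to 0.26 in the P7 arrays and -0.26 to -0.16 in the P10 arrays. In RNA of a whole gland, fewer cells of a type and less RNA per cell cannot be told apart. Over the same arrays the score of pan-epithelial markers was -0.24 to 0.17 at P7 and -0.54, -0.02 and 0.23 at P10, so it overlapped, and its part in the hormone-sensing values was not tested. The wider list of the progesterone receptor and RANKL axis shares Tnfsf11, Wnt4 and Pgr with these markers. Of its 12 genes 9 had a negative difference and 3 a positive one, and 1 was called lower (Tnfsf11). In 5 every P10 array was lower than any P7 array, and the median was -0.24 with and without WT P7 replicate 1. Tnfrsf11a, which encodes the receptor of RANKL, had a difference of 0.44 ± 0.18 (adjusted p = 0.309, and 0.52 with adjusted p = 0.295 without WT P7 replicate 1).

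Other falls had a range of time courses. Ptn, which encodes the heparin-binding growth factor pleiotrophin, read 8.86, 9.16, 9.52 and 9.18 at P7 and 8.39, 8.26 and 8.22 at P10. The fall was -0.89 ± 0.17 (adjusted p = 0.016), and it was called without WT P7 replicate 1 too (adjusted p = 0.00675). Ptn lay on a longer decline, from means of 10.06 at P0 and 10.33 at P3 through 9.18 at P7 and 8.29 at P10 to 7.09 at P15. Rgs2, a GTPase-activating protein that ends signalling by G protein-coupled receptors, read 9.51, 9.82, 10.23 and 9.55 at P7 and 8.58, 9.08 and 8.22 at P10. It fell by 1.15 on the log2 scale (adjusted p = 0.0358), and the call stood without WT P7 replicate 1 (adjusted p = 0.0455). Its mean was highest at P7 (9.78 ± 0.33, SD, n = 4) and lowest at P15 (7.66 ± 0.31, SD, n = 4). Ehbp1, whose product links endocytic vesicles to actin, fell by 0.73 on the log2 scale (adjusted p = 0.0207), from 8.22 to 8.37 in the P7 arrays to 7.45 to 7.64 in the P10 arrays. Capn8, a calpain protease gene, had P7 values of 6.48 to 6.72 and P10 values of 5.76 to 6.16 (-0.64 ± 0.13, adjusted p = 0.0268). Both also passed without WT P7 replicate 1, each with adjusted p = 0.0455.

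Sbspon, Pof1b, Lratd1 and Mia fell in the fit of all arrays and lost the call without WT P7 replicate 1. Sbspon encodes a secreted protein with somatomedin B and thrombospondin domains. It read 8.42, 8.40, 8.43 and 8.54 at P7 and 6.86, 7.36 and 7.08 at P10, a difference of -1.35 ± 0.29 (adjusted p = 0.0358) that was also -1.35 without the array (adjusted p = 0.0649). Pof1b, which encodes an actin-binding protein of epithelial junctions, differed by -1.09 ± 0.24 (adjusted p = 0.04), and by -1.10 without the array (adjusted p = 0.0753). The sizes of these 2 differences hardly moved. That fit has 1 P7 array fewer, which raises the SE at a given spread. With WT P7 replicate 2, 3 or 4 left out instead, 6, 4 and 7 of the 35 called genes stayed called, against 20 without replicate 1. What else had a part in the lost calls was not tested. Lratd1 differed by -0.97 ± 0.19 (adjusted p = 0.0207) and by -0.89 without the array (adjusted p = 0.0631). Mia, the gene of a secreted protein named after its effect on melanoma cells, differed by -0.72 ± 0.15 (adjusted p = 0.0358) and by -0.67 without it (adjusted p = 0.0904). The remaining 4 falls were smaller, and they are named although they lie outside the rule for named genes. The predicted gene Gm6548 differed by -0.46 (adjusted p = 0.0135) and kept the call without the array (adjusted p = 0.032). Ttc3, Amer2 and Epm2aip1 differed by -0.39, -0.39 and -0.37, with adjusted p of 0.038, 0.0358 and 0.0358, and lost the call without it (adjusted p = 0.0791, 0.0753 and 0.0804).

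Pigr had the largest rise. It encodes the polymeric immunoglobulin receptor, which carries IgA across the epithelium into milk. At P7 it read 7.82, 6.45, 6.24 and 6.91, and at P10 8.23, 8.58 and 9.60. The array with the highest P7 value was replicate 1, and it lay below the lowest P10 array. The difference was 1.95 ± 0.35 (adjusted p = 0.0142), and 2.27 without WT P7 replicate 1 (adjusted p = 0.00163). Leaving out WT P10 replicate 3, which held the highest value, gave 1.55 and ended the call (adjusted p = 0.129). Pigr had a mean of 5.90 in nulliparous glands and 5.77 at P3, then 6.85 at P7 and 8.80 at P10, and its P15 arrays read 10.21 to 10.88, so the interval lay on a rise that went on to P15.

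Promoter sequences are shown for the largest rise, the largest fall and the called gene of the progesterone and RANKL axis, since these are the genes the comparison turned on. The windows run from 250 bases before to 50 after the annotated start (RefSeq, GRCm38.p6) and are written 5′ to 3′ on the strand of the gene, with motif matches in capitals. Pigr lies on the plus strand at chr1:130826434-130826733, Tnfsf11 on the minus strand at chr14:78307994-78308293, and Svs2 on the minus strand at chr2:164238292-164238591.
Pigr: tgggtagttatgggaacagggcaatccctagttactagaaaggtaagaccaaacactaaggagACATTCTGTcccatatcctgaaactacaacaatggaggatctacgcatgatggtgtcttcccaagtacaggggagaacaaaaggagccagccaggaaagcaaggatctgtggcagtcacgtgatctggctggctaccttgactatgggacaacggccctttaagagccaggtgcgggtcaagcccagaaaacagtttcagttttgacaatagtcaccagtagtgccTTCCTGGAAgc
Tnfsf11: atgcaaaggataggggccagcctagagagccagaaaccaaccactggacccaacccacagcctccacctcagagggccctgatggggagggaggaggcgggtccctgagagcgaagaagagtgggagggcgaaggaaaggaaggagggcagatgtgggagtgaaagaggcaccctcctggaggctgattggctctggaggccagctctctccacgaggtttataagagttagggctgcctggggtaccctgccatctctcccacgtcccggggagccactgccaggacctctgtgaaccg
Svs2: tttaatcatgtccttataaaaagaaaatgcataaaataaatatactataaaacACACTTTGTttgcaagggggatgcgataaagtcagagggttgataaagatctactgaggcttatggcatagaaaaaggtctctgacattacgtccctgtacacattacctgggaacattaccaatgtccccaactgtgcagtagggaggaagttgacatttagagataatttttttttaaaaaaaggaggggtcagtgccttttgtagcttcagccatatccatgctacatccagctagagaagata

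The search covered the STAT motif TTCNNNGAA, the steroid receptor palindrome ACANNNTGT and the antioxidant response element core TGACNNNGC, each on both strands. The Pigr window held the steroid receptor palindrome upstream of the start and the STAT motif downstream of it, the Svs2 window held the steroid receptor palindrome, and the Tnfsf11 window held none of these letters. Of the 27025 genes with windows of this length, 9.55% held the STAT motif, 7.9% the steroid receptor palindrome and 13.99% the antioxidant core, and of all 32851 windows 8.3%, 6.85% and 12.39%. A window was given for 30 of the 35 called genes. Among the 18 genes that rose, 4 held the STAT motif (Cuta, Pigr, Tnfrsf1a and Trp53i11), 2 the palindrome (Notch4 and Pigr) and 3 the antioxidant core (Ccdc124, Cope and Tpst2). Among the 12 that fell, Svs2 with its palindrome was the 1 gene with a match. Matches are a description of letters and show no binding.

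Hmox1 had the smallest p-value of the comparison. Haem oxygenase 1 degrades haem to biliverdin, carbon monoxide and iron, and its gene is induced by haem and oxidants. At P7 the arrays read 8.62, 8.71, 8.68 and 8.70, within 0.1 of each other, and at P10 they read 9.89, 10.43 and 10.63. The rise was 1.64 ± 0.19, a 3.11-fold increase (adjusted p = 3.36e-05), and 1.62 without WT P7 replicate 1 (adjusted p = 0.000302). Its P15 arrays were at 7.94 to 8.35, lower than any P7 array, and its P0 arrays at 8.98 to 9.46. High Hmox1 values were therefore those of P10 among the 5 WT stages, as the plot of single genes by stage shows.

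**Figure D2:**
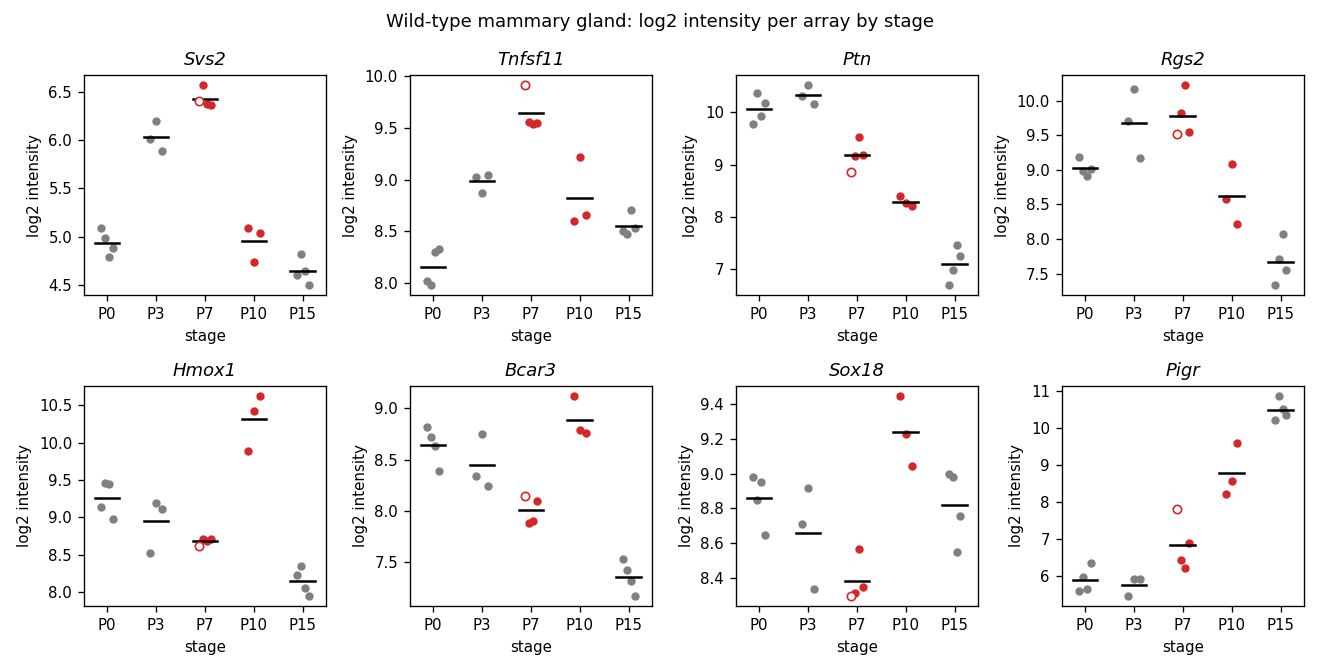
Log2 intensity of 8 called genes in every WT array by stage, from nulliparous glands in oestrus (P0) to day 15 of pregnancy (P15); bars are group means, the P7 and P10 arrays compared here are red, and the open point is WT P7 replicate 1. Svs2 and Tnfsf11 have their highest mean at P7, Hmox1, Bcar3 and Sox18 at P10, and Pigr at P15, while Ptn is highest at P3 and lowest at P15.

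Sox18, which encodes a transcription factor of vessel growth, was the called gene of the endothelial list. It read 8.29, 8.31, 8.56 and 8.34 at P7 and 9.45, 9.23 and 9.05 at P10. Its arrays did not overlap, and the rise was 0.86 ± 0.15 (adjusted p = 0.00844), or 0.84 without WT P7 replicate 1 (adjusted p = 0.0273). The call was lost without WT P10 replicate 1, with adjusted p = 0.0504. The called genes Dll4, Notch4 and Mcam are outside that list and were placed beside Sox18 after the values were seen. Dll4 and Notch4, a Notch ligand and a Notch receptor of endothelial cells, rose by 0.70 ± 0.15 (adjusted p = 0.0338) and 0.52 ± 0.12 (adjusted p = 0.0479). Mcam, the gene of an adhesion protein of vessel walls, rose from 9.94 to 10.17 in the P7 arrays to 10.78 to 10.88 in the P10 arrays (0.79 ± 0.17, adjusted p = 0.0377). Without WT P7 replicate 1 these last 3 differences were 0.68, 0.53 and 0.80, and none was called (adjusted p = 0.0753, 0.0761 and 0.0649). All 4 genes had their highest WT mean at P10.

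In the list of 18 endothelial markers, 17 had a positive difference, 11 were higher in every P10 array than in any P7 array, and Sox18 passed the test. Of all tested genes 10.3% were higher without overlap. The median difference was 0.33, or 0.37 without WT P7 replicate 1. Cldn5, the claudin of endothelial tight junctions, read 10.06, 9.98, 10.34 and 9.97 at P7 and 11.17, 10.81 and 10.91 at P10 (0.87 ± 0.26, adjusted p = 0.138, and 0.86 with adjusted p = 0.217 without WT P7 replicate 1). Robo4, a guidance receptor of vessels, had a difference of 0.47 ± 0.15 (adjusted p = 0.183), and Cdh5, the gene of VE-cadherin, one of 0.35 ± 0.13 (adjusted p = 0.256). Without WT P7 replicate 1 they were 0.47 (adjusted p = 0.271) and 0.37 (adjusted p = 0.321). The list score was 0.06 to 0.14 in the P7 arrays and 0.40 to 0.49 in the P10 arrays, including replicate 1 at P7, and the median stayed between 0.31 and 0.37 with each array left out in turn. The median was 0.38 with arrays centred on their medians and 0.31 after a further quantile normalisation. Scores of other cell types moved with it. The erythroid score, of 4 genes, was -0.24 to -0.02 at P7 and 0.12 to 0.63 at P10, with 4 positive differences and a median of 0.53 (0.48 without WT P7 replicate 1). The Schwann cell score, of 6 genes, was -0.03 to 0.08 and 0.14 to 0.30, with 4 positive differences and a median of 0.27 (0.29). No gene of either list was called, and their part in the endothelial values was not tested. Scores of the days did not overlap in 8 of the 32 lists.

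**Figure D3:**
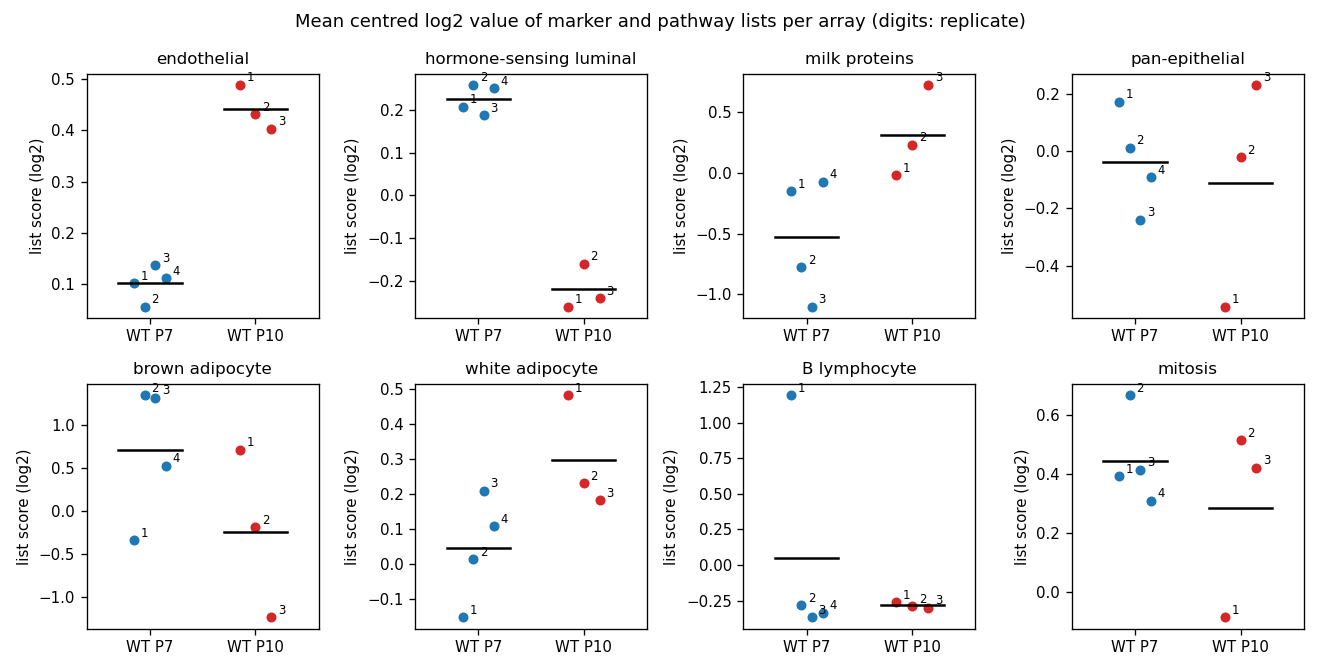
List score, the mean over a list's genes after centring every gene over all arrays, in each WT P7 and P10 array for 8 lists; digits are replicate numbers and bars are group means. The endothelial and hormone-sensing luminal scores do not overlap between the days, the pan-epithelial, brown adipocyte and mitosis scores do, and WT P7 replicate 1 stands apart in the B lymphocyte score at 1.19.

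Among other rises, Bcar3, which encodes an adaptor of the focal adhesion protein p130Cas, read 8.15, 7.88, 7.91 and 8.10 at P7 and 9.12, 8.79 and 8.76 at P10. It rose by 0.88 ± 0.15 (adjusted p = 0.00684), and by 0.93 without WT P7 replicate 1 (adjusted p = 0.0067). Bcar3 fell back to a mean of 7.36 ± 0.16 at P15 (SD, n = 4), the lowest of the 5 stages. Gldc, which encodes glycine decarboxylase of the glycine cleavage system, read 6.40 to 6.69 at P7 and no less than 7.20 at P10 (0.95 ± 0.19, adjusted p = 0.0239), on the way to a mean of 10.75 at P15. Ankrd22, an ankyrin repeat gene, rose by 1.28 ± 0.28 (adjusted p = 0.041), with P7 arrays at 5.24 to 6.13 and P10 arrays at 6.29, 7.00 and 7.77. Trp53i11, a gene first found as induced by p53, rose by 0.64 ± 0.12 (adjusted p = 0.0157). Like Pigr, these 3 had their highest mean at P15. Gldc, Ankrd22 and Trp53i11 passed without WT P7 replicate 1, with adjusted p of 0.0455, 0.0455 and 0.00675, and lost the call without WT P10 replicate 3.

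Smaller rises also stood without WT P7 replicate 1. B3gnt3, a glycosyltransferase of O-glycans, rose by 0.51 ± 0.10 (adjusted p = 0.0207). Tpst2, a tyrosine sulfotransferase of the Golgi, rose by 0.38 ± 0.08 (adjusted p = 0.0262), and Cope, a subunit of the COPI vesicle coat, by 0.37 ± 0.07 (adjusted p = 0.0207). Tnfrsf1a, the main receptor gene of TNF, rose by 0.43 ± 0.09 (adjusted p = 0.041), Zbtb7b, a zinc finger transcription factor gene, by 0.44 ± 0.09 (adjusted p = 0.0239), and AA467197 by 0.79 ± 0.16 (adjusted p = 0.0239). Without the array adjusted p was 0.034 for B3gnt3 and Cope and 0.0455 for the other 4. AA467197 depended on P10 replicate 1, which read 6.37 beside 5.47 and 5.65, and without it the difference was 0.52 (adjusted p = 0.208). Oit1 rose by 0.95 ± 0.18 (adjusted p = 0.0207) although WT P7 replicate 1, at 5.96, lay above the lowest P10 array, at 5.93, and by 1.12 without that P7 array (adjusted p = 0.00295). Rtn4rl1, a homologue of the Nogo receptor gene, rose by 0.80 ± 0.17 (adjusted p = 0.0338), and Cuta by 0.38 ± 0.08 (adjusted p = 0.041), and both lost the call without WT P7 replicate 1 (adjusted p = 0.0631 and 0.0879). Ccdc124 and Ap2s1, the gene of a clathrin adaptor subunit, rose by 0.34 and 0.32 (adjusted p = 0.041 and 0.0338) and also lost it (adjusted p = 0.101 and 0.0595). Oit1 and Ap2s1 lie outside the rule for named genes.

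Without WT P7 replicate 1, 4 genes entered that were not called in the fit of all arrays, and they are named because they were seen there. Stat5a, the gene of the prolactin-activated transcription factor, read 10.46 in replicate 1, 9.90 to 10.14 in the other P7 arrays and 10.27 to 10.71 at P10. Its difference was 0.39 ± 0.11 with the array (adjusted p = 0.111) and 0.49 without it (adjusted p = 0.0455). Car6, a secreted carbonic anhydrase gene, differed by 1.42 and 1.69, Rgs16, of the same family as Rgs2, by 1.13 and 1.29, and Slc43a2, an amino acid transporter gene, by 0.55 and 0.63, each with adjusted p = 0.0455 without the array. In these 4 genes replicate 1 held the highest P7 value, as it did for Pigr, Oit1 and Ankrd22.

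Of the 11 tested milk protein genes 10 had a positive difference. In 4 of the genes every P10 array was higher than any P7 array, against 10.3% of all tested genes. None passed the test. There were 3 at an unadjusted p below 0.05, all higher, against 11.9% of all tested genes in either direction. Their score was -1.10 to -0.07 at P7 and -0.02 to 0.73 at P10. Wap, the whey acidic protein gene, read 8.39, 7.92, 7.25 and 10.80 at P7 and 9.41, 10.00 and 11.49 at P10 (1.71 ± 0.70, adjusted p = 0.316, and 1.64 with adjusted p = 0.443 without WT P7 replicate 1). P7 replicate 4 lay above 2 of the 3 P10 arrays. Lao1, an L-amino acid oxidase gene of milk, read 7.33, 6.31, 5.71 and 7.44 at P7 and 8.29, 8.89 and 10.11 at P10 (2.40 ± 0.57, adjusted p = 0.0604, and 2.61 with adjusted p = 0.0753 without WT P7 replicate 1). Its arrays did not overlap. Glycam1, a mucin-like milk protein gene, ran from 8.34 to 11.89 at P7 and from 11.86 to 12.60 at P10 (1.97 ± 1.12, adjusted p = 0.506, and 2.51 with adjusted p = 0.454 without WT P7 replicate 1). The median of the list was 0.42, or 0.54 without WT P7 replicate 1. In the list of milk nutrient transport 13 of 18 differences were positive, the median was 0.18 with and without the array, and no gene was called. In that of folding and secretion in the endoplasmic reticulum 21 of 28 were positive, with medians of 0.05 and 0.06 and no call. Slc34a2, a phosphate transporter gene, had a difference of 1.46 ± 0.41 (adjusted p = 0.108, and 1.69 with adjusted p = 0.101 without WT P7 replicate 1). B4galt1, the catalytic partner of alpha-lactalbumin in lactose synthesis, had one of 0.46 ± 0.11 (adjusted p = 0.0604, and 0.52 with adjusted p = 0.054 without WT P7 replicate 1). In the milk fat globule list the median was 0.16, or 0.09 without the array, and Btn1a1, the butyrophilin gene, differed by 1.16 ± 0.35 (adjusted p = 0.141, and 1.38 with adjusted p = 0.112 without WT P7 replicate 1). Gjb6, a connexin gene, differed by 1.54 ± 0.48 (adjusted p = 0.154, and 1.76 with adjusted p = 0.148 without WT P7 replicate 1).

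Among metabolic lists, cholesterol synthesis had 15 of 16 positive differences, a median of 0.40 (0.37 without WT P7 replicate 1) and no call. It had 6 genes at an unadjusted p below 0.05, all higher, against 11.9% of all tested genes in either direction. Mvd, which makes isopentenyl diphosphate, differed by 0.66 ± 0.21 (adjusted p = 0.163), and Sqle, the squalene epoxidase gene, by 0.46 ± 0.22 (adjusted p = 0.414). Without WT P7 replicate 1 they differed by 0.70 (adjusted p = 0.207) and 0.42 (adjusted p = 0.55). WT P7 replicate 4 scored 0.08 and WT P10 replicate 3 scored 0.06, so the scores of the days overlapped, with the other P7 arrays at -0.34 to -0.10. For fatty acid and lipid synthesis the median was 0.15, and it was 0.10 without WT P7 replicate 1 and -0.03 without WT P10 replicate 1. The score of white adipocyte markers was highest in that same array, at 0.48, and the part of fat content in the lipid lists was not tested. Serine, glycine and folate genes had a median of 0.23, or 0.26 without WT P7 replicate 1, with 11 of 12 positive and none called.

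No gene of the cell cycle lists passed the test. Of 27 mitosis genes 24 had a negative difference with a median of -0.16 (-0.15 without WT P7 replicate 1), but it was 0.06 without WT P10 replicate 1, whose score was -0.08 beside 0.31 to 0.67 in the other 6 arrays. Of 23 DNA replication genes 20 had a positive difference with a median of 0.14 (0.15 without WT P7 replicate 1). None was called in either list, and none of either had an unadjusted p below 0.05. Mki67, the Ki-67 proliferation gene, which lies outside the rule for named genes, read 9.79 to 9.91 at P7 and 9.13, 9.67 and 9.85 at P10, a difference of -0.28, or -0.29 without WT P7 replicate 1.

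Brown adipocyte markers varied widely between arrays of the same day. Ucp1, the uncoupling protein gene of brown fat, read 9.23, 12.05, 11.99 and 10.95 at P7 and 10.67, 8.82 and 6.83 at P10 (-2.29 ± 1.28, adjusted p = 0.496, and -2.89 with adjusted p = 0.446 without WT P7 replicate 1). The list median of -0.91, or -1.21 without WT P7 replicate 1, was among the largest in size of the 32 lists, yet no member was called, 2 had an unadjusted p below 0.05, and none was free of overlap. B lymphocyte markers had a median of -0.25 that became 0.06 without WT P7 replicate 1. T lymphocyte markers had medians of 0.01 and 0.16. Interferon-induced genes had 19 of 19 positive differences and a median of 0.26, or 0.40 without that array. None was called, with 3 at an unadjusted p below 0.05. For this list and the brown adipocyte list, the share over all tested genes was 11.9%. Rtp4, an interferon-induced gene, read 9.10 in replicate 1, 7.57 to 8.10 in the other P7 arrays and 8.73 to 8.96 at P10 (0.73 ± 0.31, adjusted p = 0.338, and 1.06 with adjusted p = 0.132 without WT P7 replicate 1). In all, the 32 lists held 466 different tested genes, of which 3 were called, Tnfsf11, Pigr and Sox18.

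The KO arrays gave the same interval in glands without PTP1B. Of the 35 genes, 29 had the same sign in KO, 17 of the rises and 12 of the falls, against 57.5% of all tested genes. In KO 4044 genes were called (24.0%, of which 12.3% higher and 11.7% lower), among them 21 of the 35 in the same direction and Ccdc124 in the other. KO P10 replicates 2 and 3 had lymphocyte scores of 3.53 and 3.49, against -0.06 in replicate 1, and the part of that in the KO values was not tested. Leaving out the 7 arrays of the series with a raised lymphocyte or muscle score or with Ptpn1 against the label left 4 KO P7 arrays and 1 KO P10 array. The lone array is then taken to vary like the other groups. In that fit 33 of the 35 had the same sign in KO (65.8% of all genes), B3gnt3 and Ccdc124 being the others, and 121 genes were called in KO (0.717%), among them Svs2, Ptn, Pigr, Hmox1, Gldc and Ankrd22.

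Hmox1 read 8.27, 8.49, 8.41, 8.58 and 8.36 in KO P7 and 11.12, 11.16 and 10.56 in KO P10, a difference of 2.53 ± 0.19 (adjusted p = 3.42e-10). Svs2 differed by -1.89 ± 0.20 in KO (adjusted p = 2.53e-07), from 6.26 to 6.87 at P7 to 4.59 to 4.85 at P10. Tnfsf11 differed by -0.98 ± 0.16 in KO (adjusted p = 6.29e-05), and by -0.83 without the arrays in doubt, where it was not called (adjusted p = 0.114). All 7 hormone-sensing luminal markers fell in KO, where 11.7% of all tested genes were called lower, with a list median of -0.98, or -0.83 without the arrays in doubt. Genes of other lists fell in the same KO arrays. Of the pan-epithelial markers 10 of 20 were called lower (median -0.54, or -0.28 without the arrays in doubt), of the white adipocyte markers 8 of 16 (-0.38 and 0.05) and of the fibroblast and matrix genes 9 of 23 (-0.32 and -0.21). Their part in the hormone-sensing values was not tested. For Pigr the KO difference was 1.08 ± 0.34 (adjusted p = 0.0183), and 1.95 without the arrays in doubt (adjusted p = 0.0134). The endothelial list had a KO median of -0.26, with 1 gene higher and 8 lower, and of 0.02 without the arrays in doubt. Sox18 differed by 0.47 ± 0.14 in KO (adjusted p = 0.0144) and by 0.74 without those arrays (adjusted p = 0.0981).

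A test of the difference between the WT and KO changes called 1169 genes (6.93%), among them 10 of the 35. The change of Mcam was larger in WT by 0.98 ± 0.23 (adjusted p = 0.0136) and that of Notch4 by 0.65 ± 0.16 (adjusted p = 0.0164), while that of Hmox1 was smaller in WT by 0.89 ± 0.27 (adjusted p = 0.0406). Ptn had a smaller fall in WT, with a difference of 0.86 ± 0.23 between the changes (adjusted p = 0.022). For Svs2 the difference was 0.41 ± 0.28 (adjusted p = 0.421), for Tnfsf11 0.16 ± 0.23 (adjusted p = 0.764) and for Pigr 0.87 ± 0.49 (adjusted p = 0.305). With the lymphocyte score as a covariate 0 genes were called for this difference. Without the arrays in doubt 1 KO P10 array was left, so that fit cannot decide whether the changes differ, and nothing is read from it.

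**Figure D4:**
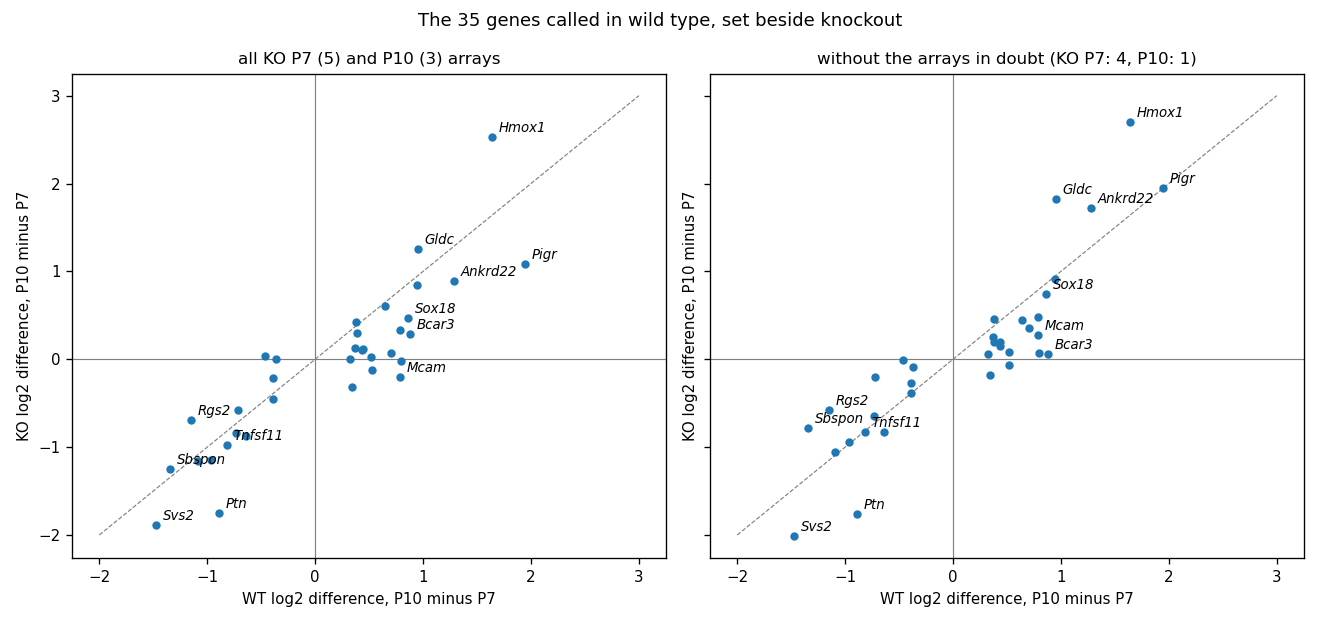
Log2 difference of P10 minus P7 in WT (x axis) and KO (y axis) for the 35 genes called in WT, with all KO arrays (left) and without the arrays in doubt (right; 4 KO P7 arrays and 1 KO P10 array); x values are from the fit of all arrays, and the dashed line marks equal differences. Hmox1 lies above the line and Ptn below it in both panels, and Mcam moves from a KO difference of -0.20 to 0.28.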

How the data were processed

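Mammary gland RNA was hybridised to 37 Affymetrix whole-transcript arrays, of which 4 were WT P7 and 3 WT P10. The authors deposited log2 intensities, 1 value for each array and each of 34760 probe sets. The tool affy is named per the submitters' processing notes, and how background, summarisation and normalisation were handled is not given in the sources used here. A gene was represented by its brightest probe set among the 21640 with 1 gene symbol, and was tested if 3 or more arrays read above 4.96, the 25th percentile of all values, leaving 16865 genes. A limma 3.58.1 model (R 4.3.3) with a mean for each of the 10 groups covered all arrays, and differences were tested two-sided with Benjamini-Hochberg adjustment over all tested genes. The fit was tested on simulated data with independent normal noise of the same spread in every group. Those data hold no effects shared by the genes of an array, so nothing about the calls is read from that test. The 32 gene lists were described by counts, medians and mean centred scores.

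The members and lists were chosen with earlier results of these data known. The genes named were the 15 largest rises and falls that kept their call without WT P7 replicate 1 and whose arrays did not overlap, the 5 largest of each that lost it, up to 6 per list, the 5 with the smallest p for the WT and KO difference, and Ptpn1. The text gives examples of these, picked after the values were seen, and says where it goes outside them. Alternatives left out arrays or changed the filter, probe set choice, scaling, variance prior, weights, samples or covariates.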

Additional observations from a re-analysis of the deposited data

Results flagged for a closer look

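In WT P7 replicate 1 B3gnt3 read 6.87, while the other 3 P7 arrays lay at 6.75, and Tnfsf11 read 9.92 against 9.54 to 9.55. The B lymphocyte list score was 1.19 in the same array, against -0.37 to -0.28 in the other 3. The score of immediate early genes was 0.35 in WT P7 replicate 3 and -0.04 to -0.01 in the others. In these 4 of 67 groups of values compared, 1 array stood apart, judged by its gap as a share of the range of its group. The rule takes no account of the size of the gap, which was small for B3gnt3. Chance alone would give such a flag in about 1 of 20 groups.

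For 10 called genes the change from P7 to P10 differed between WT and KO by limma's test of the difference, given as WT change minus KO change. It was 0.32 for Ap2s1, 0.48 for B3gnt3, 0.66 for Ccdc124, 0.98 for Mcam, 0.65 for Notch4, 0.86 for Ptn and 0.82 for Rtn4rl1. It was -0.37 for Epm2aip1, -0.50 for Gm6548 and -0.89 for Hmox1. Adjusted p ran from 0.00308 for Ccdc124 to 0.0406 for Hmox1. With the lymphocyte score as a covariate 0 genes were called for this difference. Without the arrays in doubt 1 KO P10 array was left, so that fit cannot decide on these 10.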

How the results depend on the processing

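The count of called genes in WT (35) was 59 without the arrays in doubt, 22 after a further quantile normalisation, 96 with each array centred on its median, 1731 with array weights, 251 in a fit of the 7 compared arrays alone and 76 with the lymphocyte score as a covariate, and it ran from 4 to 26 with single arrays left out. In KO (4044) it was 121 without the arrays in doubt, 7615 with array weights, 2420 in the compared groups alone and 39 with the covariate, and 2012 to 5152 with single arrays left out. For the difference between WT and KO (1169) it was 1947 with median centring and 5263 with array weights. It was 0 in the compared groups alone (4045 at an unadjusted p below 0.05) and 0 with the covariate (755). With single arrays left out it ran from 9 to 3223. The fit without the arrays in doubt left 1 KO P10 array, and its count for the difference is not given. What set these counts apart was not tested. For the named genes called in WT, no WT difference changed sign under any setting run. In fits that left out arrays this was fixed by the lack of overlap. A change of filter or variance prior cannot move a difference of means, so nothing is read from those settings. Some KO differences of these genes did change sign. Mcam, Notch4, Rtn4rl1, Epm2aip1 and Gm6548 had the sign opposite to WT with all KO arrays and the WT sign without the arrays in doubt. For B3gnt3 it was the reverse. A replicate block gave 32, 3564 and 1090 genes for the 3 comparisons; same-numbered P7 and P10 arrays of WT had deviations that correlated at -0.43 to 0.09, and 0 of 3 P10 arrays correlated best with their own number, so the numbers show no pairing.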

Other observations

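Genes of haem and iron handling and of the oxidant response were looked at after Hmox1 had been seen, so the choice followed the values. Slc40a1, the iron exporter ferroportin, read 7.90, 8.13, 8.21 and 8.08 at P7 and 8.55, 9.10 and 9.33 at P10 (0.91 ± 0.24, limma adjusted p = 0.0836, and 0.85 with adjusted p = 0.172 without WT P7 replicate 1). Spic, a transcription factor of haem-degrading macrophages, read 4.81 to 5.37 at P7 and 5.64, 6.16 and 5.76 at P10 in WT. The WT difference was 0.87 ± 0.26 (adjusted p = 0.137, and 0.126 without WT P7 replicate 1). In KO it read 4.63 to 5.03 at P7 and 6.74, 8.17 and 8.44 at P10 (2.98 ± 0.25, adjusted p = 3.88e-09). The P7 values lay around the filter value of 4.96. KO P10 replicates 2 and 3 had lymphocyte scores of 3.53 and 3.49, and their part in the KO difference of Spic was not tested. Slc7a11, a cystine transporter gene, read 4.83 to 5.59 at P7 and 6.26 to 6.37 at P10 (1.09 ± 0.33, adjusted p = 0.139, and 1.20 with adjusted p = 0.154 without WT P7 replicate 1). Tfrc, the transferrin receptor gene, differed by 0.80 (adjusted p = 0.226, and 0.87 with adjusted p = 0.257 without WT P7 replicate 1). Fth1, Nqo1 and Gclm, further genes of iron storage and of the oxidant response, differed by -0.01, 0.13 and -0.07, and by -0.01, 0.12 and -0.10 without that array. Of the erythroid markers Alas2 read 8.31 to 8.91 at P7 and 9.24 to 10.13 at P10 (0.98 ± 0.51, adjusted p = 0.46, and 0.97 with adjusted p = 0.557 without WT P7 replicate 1).

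In the list of immediate early genes 14 of 18 differences were negative, and 4 genes were lower without overlap, against 8.01% of all tested genes. The median was -0.08 (-0.11 without WT P7 replicate 1) and none was called. In the clock list 8 were positive and 8 negative, with a median of 0.01 in both fits and no call. Dusp1, a phosphatase gene of MAP kinases, read 10.34, 10.70, 11.18 and 10.53 at P7 and 9.97, 10.23 and 9.32 at P10 (-0.85 ± 0.20, adjusted p = 0.0605, and -0.96 with adjusted p = 0.0587 without WT P7 replicate 1). Bhlhe41, a clock repressor gene, differed by -0.87 ± 0.21 (adjusted p = 0.0624), and Nr1d1, which encodes REV-ERB alpha, by 1.19 ± 0.43 (adjusted p = 0.239). Without the array they differed by -0.87 (adjusted p = 0.117) and 1.31 (adjusted p = 0.271). No collection time is given in the labels. Irf4, a transcription factor gene of lymphocytes and plasma cells, read 9.23, 9.91, 10.62 and 7.80 at P7 and 7.35 to 7.83 at P10 (-1.73 ± 0.58, adjusted p = 0.189, and -1.78 with adjusted p = 0.266 without WT P7 replicate 1). It had the most negative difference of the plasma cell list, where 6 of 9 differences were positive. The median of that list was 0.06 (0.07 without WT P7 replicate 1), and no gene was called. Its scores overlapped, at -0.16 to 0.10 at P7 and -0.16 to 0.01 at P10.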
